A study of Saccharomyces cerevisiae with 90 samples.

Results

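Glycogen is the branched glucose polymer that budding yeast (Saccharomyces cerevisiae) lays down as a carbon reserve. The genes described here are 10 genes of its metabolism, chosen by name: the glycogen initiators GLG1 and GLG2, the glycogen synthases GSY1 and GSY2, the branching enzyme GLC3, the phosphorylase GPH1, the debranching enzyme GDB1, and the phosphatase-targeting genes GAC1, PIG2 and GIP2, whose products are known or putative subunits that bring the protein phosphatase Glc7 to glycogen. Each had 1 probe set on the array, and all 10 were among the 5449 genes tested. The files gave them the identifiers YKR058W (GLG1), YJL137C (GLG2), YFR015C (GSY1), YLR258W (GSY2), YEL011W (GLC3), YPR160W (GPH1), YPR184W (GDB1), YOR178C (GAC1), YIL045W (PIG2) and YER054C (GIP2).

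A new glycogen particle starts when a self-glucosylating initiator builds a short glucose chain, which a synthase lengthens from UDP-glucose and the branching enzyme turns into a tree. Phosphorylase releases glucose 1-phosphate from the outer chains, and the debranching enzyme clears the stubs that it leaves. Glycogen synthase is switched off by phosphorylation and switched on when Glc7 removes the phosphate, and phosphorylase is regulated in the opposite sense. In yeast, glycogen accumulates as glucose or another nutrient runs down, and many genes of its metabolism are repressed by cAMP-dependent protein kinase and induced with the general stress response.

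RNA was measured on 90 Affymetrix arrays in 29 groups, to find how the yeast genome responds to touching a solid substrate and which parts of that response need a proposed MAP-kinase pathway. Wild-type cells were grown for 6 h in SD on agar, on gelatin or in liquid, and for 6 h in SLAD and in SG on agar or in liquid. Wild-type in SD was also sampled at 0 h from agar (6 arrays) and from liquid, and all the other groups had 3 arrays. In SD at 6 h, agar and liquid were compared in strains labelled Kss1K42R (the MAP kinase Kss1 with the change that the name gives), tec1 knockout, msb2 knockout, flo11 knockout, pRS313, pRS313-STE11-4, pRS316, pRS316-MSB2* and PGAL1-FLO11. The last was also grown in SG on agar and in liquid. SD usually denotes a synthetic glucose medium, SLAD a low-ammonium glucose medium and SG a galactose medium, and the labels give only these abbreviations. The labels give no host genotype for the plasmids, no clone number and no statement that the arrays of a group came from separate cultures, so the p values below measure only the spread between these samples, which may be technical.

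Values are log2 signals. Levels are given as mean ± standard deviation over 3 arrays unless each array is listed, and changes as log2 change ± SE from 1 limma fit over all arrays, with a p adjusted within each comparison for all 5449 genes (Benjamini-Hochberg). Such a change is the difference of the means of the groups compared. Its SE and p rest on a spread for each gene pooled over all groups, not on that of the groups compared alone. For GSY1 the standard deviation ran from 0.03 (pRS313 in SD liquid) to 1.66 (msb2 knockout on SD agar), so 1 SE can overstate or understate the spread of a given pair. The words rose and fell are used where that adjusted p was under 0.05. Background was judged on each array by the probe sets of genes absent from the S. cerevisiae table, with their 95th percentile as the limit (5.72 to 6.33, median 6.01). At the top of the scale, the 99th percentile was 14.87 to 14.97 on every array, which leaves little room for a rise there. TEC1 (5.67 ± 0.04 on agar) and MSB2 (4.99 ± 0.21) were not above background in their knockouts, and FLO11, the cell-surface adhesin, read 6.77 ± 0.26 on agar in its knockout. For the SD arrays labelled PGAL1-FLO11, the FLO11 level was 14.50 ± 0.11 (agar) and 10.64 ± 0.38 (liquid), against 14.81 ± 0.06 and 10.41 ± 0.16 in wild-type, while GAL1, which marks activity of the GAL1 promoter, read 8.0 ± 0.12 and 8.33 ± 0.32. These FLO11 values followed the substrate, as in wild-type, and not GAL1. The label does not say whether the construct replaces the native FLO11 promoter, so the strain of those 6 arrays is given below as labelled only.

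Wild-type SG liquid was the group with the highest mean for 9 of the 10 genes. The exception was GLG2, whose mean was highest in wild-type SLAD liquid (10.26 ± 0.04) and next in wild-type SG liquid (9.85 ± 0.03). GPH1 spanned the widest range of group means, from 6.10 ± 0.36 in PGAL1-FLO11 on SD agar to 14.98 ± 0.07 in wild-type SG liquid. GSY1 ran from 7.44 ± 0.13 on gelatin to 14.29 ± 0.14, GIP2 from 5.03 ± 0.70 in wild-type SD liquid at 6 h to 11.29 ± 0.19, and GAC1 from 5.95 ± 0.11 in the tec1 knockout on agar to 11.88 ± 0.45. GSY2 (9.49 to 15.16), GLC3 (9.63 to 15.00), GLG1 (7.08 to 12.09) and GDB1 (9.85 to 14.47) had ranges of 4.62 to 5.67 log2. PIG2 (7.60 to 9.76) and GLG2 (8.55 to 10.26) varied least, with ranges of 2.16 and 1.71 log2. GSY2, GLC3 and GPH1 in wild-type SG liquid lay at or above the 99th percentile range of the arrays, so their changes against that group may be understated.

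**Figure D1:**
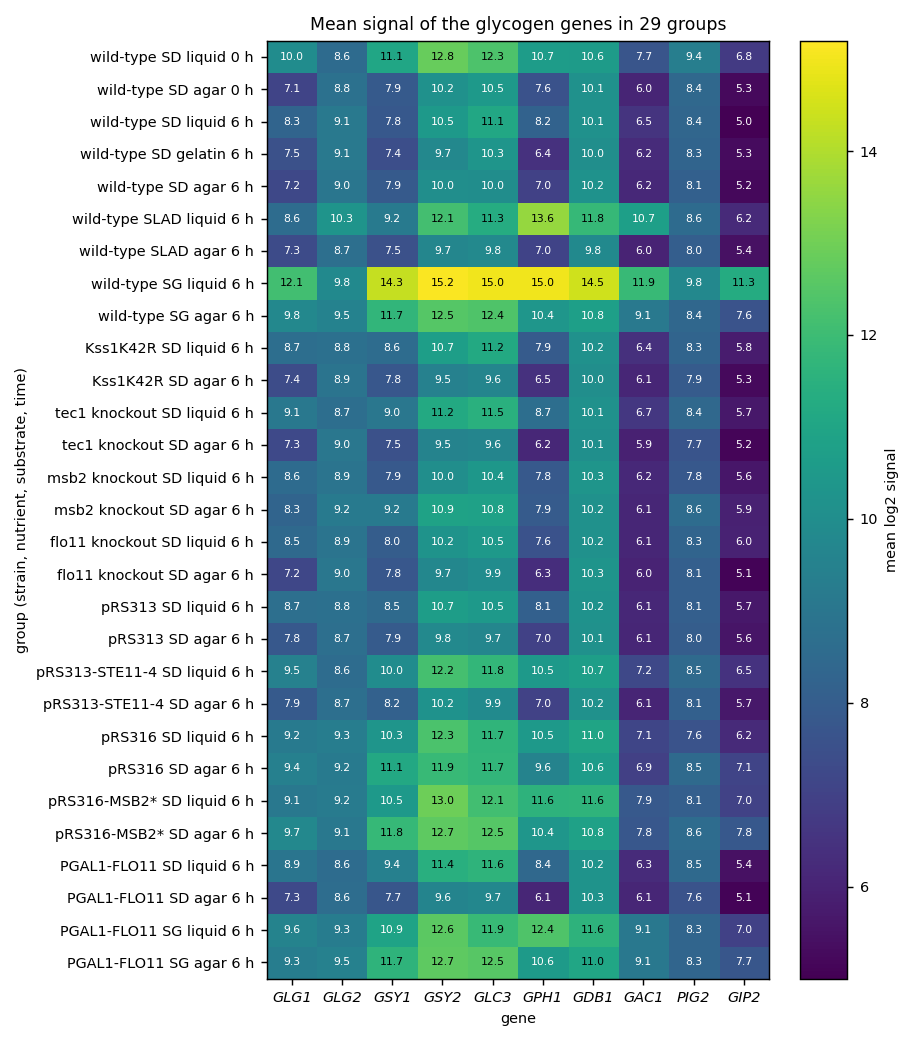
Mean log2 signal of each glycogen gene (columns) in each of the 29 groups (rows), printed in the cell and shown by colour. Wild-type SG liquid holds the highest value of every column except GLG2, and GPH1 and GAC1 are also high in wild-type SLAD liquid.

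Several genes were dim in part of the groups. GIP2 was not above background on any array in 15 groups and was above it on every array in 11. GAC1 was not above background on any array in 2 groups, pRS313 on agar and the tec1 knockout on agar, and was above it on every array in 17. GPH1 was above background on every array in 25 groups, and in the other 4, all on SD agar (Kss1K42R, tec1 knockout, flo11 knockout and PGAL1-FLO11), it was above background on 1 or 2 of 3 arrays. The other 7 genes were above background on every array of every group. Where a gene was below background throughout a group, a fold is given below as at least the fold over that limit.

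Order among groups was clearest for the phosphorylase gene GPH1. Below wild-type SG liquid came wild-type SLAD liquid (13.60 ± 0.03), PGAL1-FLO11 in SG liquid (12.39 ± 0.60) and pRS316-MSB2* in SD liquid (11.59 ± 0.02), each separated from the next by more than either standard deviation. A run of 6 groups then followed between 10.65 ± 0.57 (wild-type SD liquid at 0 h) and 10.36 ± 0.34 (wild-type SG agar), whose neighbours lay within their spread. All 9 groups with a mean of 7.04 or less were solid-substrate groups in SD or SLAD. For GSY1 the order was different: pRS316-MSB2* on SD agar (11.85 ± 0.68), wild-type SG agar (11.73 ± 0.71) and PGAL1-FLO11 on SG agar (11.65 ± 0.15) came next after wild-type SG liquid and lay within their spread, whereas wild-type SLAD liquid ranked well below them at 9.16 ± 0.10.

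**Figure D2:**
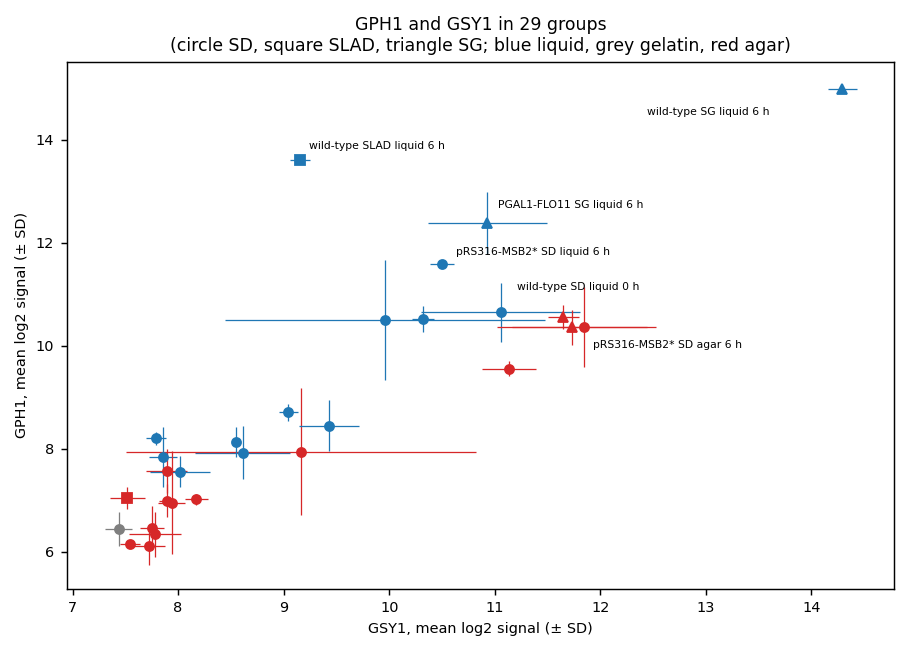
Mean log2 signal of GSY1 (x axis) and GPH1 (y axis) in each of the 29 groups, with bars of 1 standard deviation over arrays. Wild-type SLAD liquid stands off the run of the other groups, with GPH1 at 13.60 and GSY1 at 9.16.

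The comparison of SD agar with SD liquid in wild-type addresses the response to a solid surface. Of the 10 genes, GLG1, GLC3 and GPH1 fell on agar and 7 did not pass the test, beside 21.1% of all genes tested that fell. GPH1 read 6.67, 6.98 and 7.31 on the agar arrays and 8.09, 8.16 and 8.34 on the liquid arrays. The groups did not overlap, and the change was -1.21 ± 0.40 (limma adjusted p = 0.00987). The initiator gene GLG1 read 7.60, 6.89 and 7.14 on agar and 8.11, 8.62 and 8.18 in liquid, a change of -1.10 ± 0.27 (limma adjusted p = 0.00058). The branching enzyme gene GLC3 read 9.81, 9.92 and 10.30 on agar and 10.94, 11.16 and 11.22 in liquid, a change of -1.10 ± 0.32 (limma adjusted p = 0.00311). Each of these 3 genes was lower on all agar arrays than on any liquid array, a fall of 2.14-fold to 2.32-fold, and over all genes the arrays of 67.4% did not overlap in either direction. The synthase genes gave 0.10 ± 0.40 (GSY1) and -0.43 ± 0.28 (GSY2), and neither passed, although all agar arrays of GSY2 (9.92 to 10.16) lay below its liquid arrays (10.21 to 10.61). The changes of GLG2 (-0.15 ± 0.17), GDB1 (0.05 ± 0.15), GAC1 (-0.33 ± 0.26) and PIG2 (-0.22 ± 0.18) did not pass either, and GIP2 was below background on every array of both groups. The median change over the 10 genes was -0.27, beside 0.09 over all genes. In these bulk samples, fewer cells with a transcript and less of it per cell cannot be told apart.

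On gelatin, the other solid substrate, 4 genes fell against liquid (GSY2, GLG1, GLC3 and GPH1) and 6 did not pass, beside 21.6% of all genes that fell. GPH1 read 6.06, 6.67 and 6.60 on gelatin, below every liquid array, and fell by 1.76 on the log2 scale (SE 0.40, limma adjusted p = 0.000428). GSY2 read 9.40, 10.03 and 9.82 and changed by -0.73 ± 0.28, and GLC3 read 9.65, 10.57 and 10.70 and changed by -0.80 ± 0.32. The gelatin arrays of GLG1 (8.45, 7.21 and 6.88) overlapped the liquid arrays, with a change of -0.79 ± 0.27. Gelatin array A stood apart from B and C over all genes, with a root mean square distance of 0.60 log2 from its group mean against 0.33 and 0.30. The count of genes that passed was 3 without any 1 of the gelatin arrays, 1 without liquid array B and 2 without liquid array C. Between agar and gelatin no glycogen gene passed, none had an unadjusted p under 0.05 either, and 12.4% of all genes passed in either direction. GPH1 differed by 0.54 ± 0.40 and GSY1 by 0.46 ± 0.40 between agar and gelatin.

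In SLAD all 10 genes fell on agar, beside 33.6% of all genes, and for each of the 10 the agar and liquid arrays did not overlap, as was so for 81.4% of all genes. GPH1 read 6.96, 7.28 and 6.87 on SLAD agar and 13.63, 13.59 and 13.58 in SLAD liquid. This was a 94.7-fold difference (log2 change -6.57 ± 0.40, limma adjusted p = 4.22e-23). The phosphatase-targeting gene GAC1 read 5.95, 6.14 and 6.02 on agar, with 1 of these arrays above background, and 10.43, 10.92 and 10.89 in liquid. It changed by -4.71 ± 0.26 (limma adjusted p = 6.33e-25), a 26.2-fold difference. GDB1, the partner of the phosphorylase in breakdown, fell from 11.84 ± 0.09 to 9.85 ± 0.05 (-1.99 ± 0.15). GSY2 read 9.51, 9.84 and 9.64 on agar and 12.20, 12.10 and 12.11 in liquid (-2.47 ± 0.28), and GSY1 fell by less (-1.64 ± 0.40). The changes of GLG2 (-1.55 ± 0.17), GLC3 (-1.54 ± 0.32) and GLG1 (-1.25 ± 0.27) were of a like size. PIG2 changed by -0.52 ± 0.18. GIP2, below background on all agar arrays, was at least 1.10-fold lower on agar (limma adjusted p = 0.00661). The median over the 10 genes was -1.59, beside 0.07 over all genes.

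**Figure D3:**
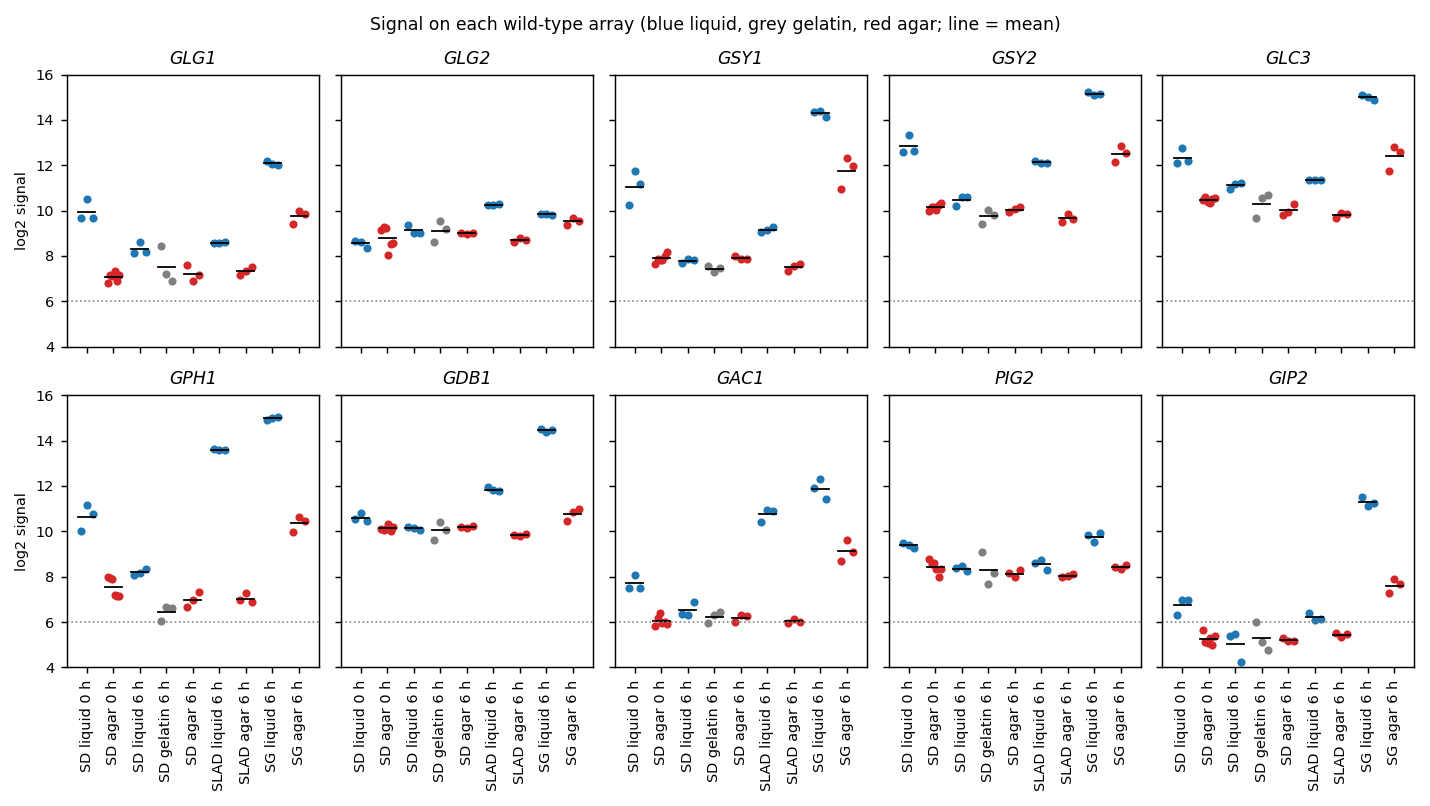
Log2 signal of each glycogen gene on every wild-type array, by nutrient, substrate and time, with the group mean as a line and the median background limit (6.01) dotted. The SLAD and SG liquid arrays of GPH1, GDB1 and GAC1 lie above all the other 6 h arrays.

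In SG 9 genes fell on agar and GLG2 did not pass (-0.31 ± 0.17, limma adjusted p = 0.0935), beside 29.7% of all genes that fell. GPH1 read 9.97, 10.63 and 10.46 on SG agar and 14.90, 14.98 and 15.05 in SG liquid, a change of -4.62 ± 0.40 (limma adjusted p = 6.39e-16). GDB1 read 10.45 on the lowest agar array, with a mean of 10.77 ± 0.28, and 14.53, 14.40 and 14.47 in liquid, a change of -3.70 ± 0.15 (limma adjusted p = 3.47e-31). GIP2 read 7.26, 7.88 and 7.66 on agar and 11.49, 11.13 and 11.25 in liquid, a change of -3.69 ± 0.26 (limma adjusted p = 5.22e-20). These were falls of 13.0-fold for GDB1 and 12.9-fold for GIP2. GPH1, GSY2 and GLC3 lay at the top of the scale in SG liquid, so their falls may be understated and are not ranked. As measured, the falls of GAC1 (-2.75 ± 0.26), GSY2 (-2.64 ± 0.28), GLC3 (-2.61 ± 0.32), GSY1 (-2.56 ± 0.40) and GLG1 (-2.34 ± 0.27) lay close together, and that of PIG2 was -1.35 ± 0.18. Even after these falls, GSY1 on SG agar (10.93, 12.30 and 11.97) lay above every wild-type array in SD or SLAD at 6 h. The median over the 10 genes was -2.63, beside 0.04 over all genes.

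**Figure D4:**
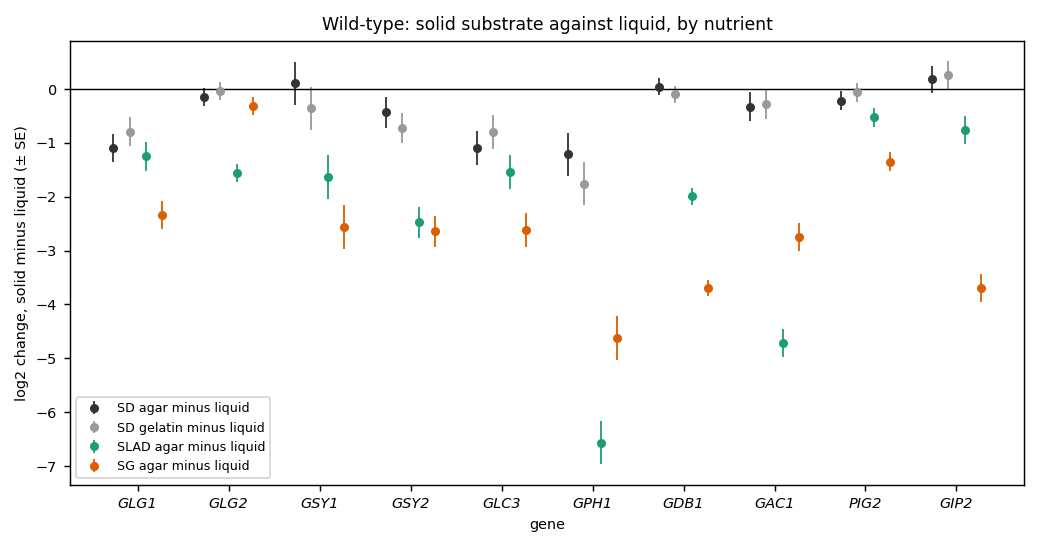
Log2 change between a solid substrate and liquid in wild-type at 6 h for each glycogen gene, with bars of 1 SE from the limma fit. In SLAD the changes of GPH1 (-6.57) and GAC1 (-4.71) stand far below the other genes. In SG the changes were -3.70 for GDB1, -3.69 for GIP2 and -4.62 for GPH1, whose fall may be understated at the top of the scale.

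The agar effect is here the signed log2 change, agar minus liquid. A lower value means a stronger fall or a weaker rise on agar, or a fall in place of a rise. Testing the difference itself, the agar effect was lower in SLAD than in SD for 7 of the 10 genes, beside 26.7% of all genes. The difference was -5.35 ± 0.57 for GPH1, -4.38 ± 0.37 for GAC1, -2.04 ± 0.22 for GDB1, -2.04 ± 0.40 for GSY2, -1.74 ± 0.57 for GSY1 and -1.40 ± 0.24 for GLG2. GIP2 also passed, but it was below background on every array of 3 of the 4 groups in the contrast, so no size is given. GLG1 (-0.16 ± 0.38), GLC3 (-0.45 ± 0.45) and PIG2 (-0.30 ± 0.25) did not pass. Of these, GLG1 and GLC3 had fallen by 1.10 log2 each in SD and had changes of -1.25 and -1.54 in SLAD. In SG the agar effect was lower than in SD for 9 genes, beside 24.3% of all genes, with GDB1 (-3.74 ± 0.22) and GPH1 (-3.41 ± 0.57) among them. GIP2 was another, with no size given because it was below background on every SD array. GLG2 alone did not pass there (-0.17 ± 0.24). Both contrasts use the same wild-type SD arrays and are therefore not independent of each other.

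SLAD was then set against SD on each substrate. On agar, no glycogen gene passed in the limma fit over all arrays, where 1.78% of all genes passed in either direction. A single glycogen gene had an unadjusted p under 0.05, and the largest difference was -0.38 ± 0.28 for GSY2. With only the 6 arrays of these groups in the fit, 5 of the 10 passed at the same small changes. The share of all genes that passed in that smaller fit is not given, so this count has no background beside it. The genes were GSY1, GSY2, GLG2 and GDB1, each lower in SLAD by 0.28 to 0.38 log2, and GIP2, which was below background on every array of both groups. In liquid, 7 genes rose in SLAD against SD, beside 33.3% of all genes. GPH1 rose by 5.41 ± 0.40 (limma adjusted p = 5.44e-19), from 8.09, 8.16 and 8.34 in SD to 13.63, 13.59 and 13.58 in SLAD. GAC1 read 6.38, 6.31 and 6.87 in SD liquid and rose by 4.23 ± 0.26 (limma adjusted p = 1.77e-22), and GDB1 rose by 1.70 ± 0.15. Among synthesis genes, GSY2 (1.66 ± 0.28), GSY1 (1.36 ± 0.40) and GLG2 (1.12 ± 0.17) rose, whereas GLG1 (0.29 ± 0.27) and GLC3 (0.23 ± 0.32) did not pass, nor did PIG2 (0.20 ± 0.18). GIP2 rose at least 1.06-fold, being below background on every SD liquid array.

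SG was also set against SD on each substrate. On agar 9 genes rose in wild-type, beside 34.9% of all genes: GSY1 by 3.84 ± 0.40, GPH1 by 3.37 ± 0.40, GAC1 by 2.94 ± 0.26, GLG1 by 2.55 ± 0.27, GSY2 by 2.47 ± 0.28, GLC3 by 2.38 ± 0.32, GDB1 by 0.59 ± 0.15 and GLG2 by 0.54 ± 0.17. GIP2, below background on all SD agar arrays, was at least 2.85-fold higher, and PIG2 (0.27 ± 0.18) did not pass. In liquid all 10 rose, beside 43.2% of all genes, and the SD and SG arrays of none of the 10 overlapped, as was so for 77.2% of all genes. GSY1 read 7.69, 7.86 and 7.84 in SD liquid and 14.37, 14.38 and 14.13 in SG liquid, a 90.5-fold difference (6.50 ± 0.40, limma adjusted p = 4.69e-23). The increases were 6.78 ± 0.40 for GPH1, 5.36 ± 0.26 for GAC1, 4.68 ± 0.28 for GSY2, 4.33 ± 0.15 for GDB1, 3.89 ± 0.32 for GLC3 and 3.79 ± 0.27 for GLG1, and GIP2 was at least 35.8-fold higher. PIG2 (1.40 ± 0.18) and GLG2 (0.71 ± 0.17) rose least. In PGAL1-FLO11, all 10 rose in SG on agar, beside 36.3% of all genes, and 8 rose in liquid, beside 31.4%. GPH1 led both, with 4.46 ± 0.40 on agar and 3.94 ± 0.40 in liquid, and GLC3 (0.25 ± 0.32) and PIG2 (-0.16 ± 0.18) did not pass in liquid.

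Time was compared in wild-type in SD. On agar no glycogen gene passed between 6 h and 0 h, with none at an unadjusted p under 0.05, whereas 22.1% of all genes passed in either direction. GPH1 ranged from 7.15 to 7.98 (median 7.56) on the 6 agar arrays at 0 h, and arrays A to C (7.91 to 7.98) lay above arrays D to F (7.15 to 7.20). GLG2 split the same way, at 9.14 to 9.28 on A to C and 8.03 to 8.55 on D to F. With A to C alone or D to F alone as the 0 h group, 1 gene passed. In liquid, 9 genes fell from 0 h to 6 h, beside 35.5% of all genes, and GLG2 alone rose, by 0.59 ± 0.17, beside 20.3% of all genes that rose. GSY1 read 10.25, 11.73 and 11.19 in liquid at 0 h and 7.69, 7.86 and 7.84 at 6 h, a fall of 9.60-fold (-3.26 ± 0.40, limma adjusted p = 7.25e-10). GPH1 fell by 2.45 on the log2 scale (SE 0.40) and GSY2 by 2.37 (SE 0.28). GLG1 changed by -1.65 ± 0.27, GLC3 by -1.23 ± 0.32, GAC1 by -1.18 ± 0.26, PIG2 by -1.02 ± 0.18 and GDB1 by -0.47 ± 0.15, and GIP2 was at least 1.54-fold lower. At 0 h itself, 9 genes were lower on agar than in liquid, beside 27.2% of all genes, with GSY1 at -3.16 ± 0.35 and GLG1 at -2.87 ± 0.23. GLG2 did not pass there (0.24 ± 0.14). This comparison and that of 6 h with 0 h in liquid use the same liquid arrays at 0 h, so they are not independent. The titles of those arrays carry a letter b that the titles of the 0 h agar arrays lack, and its meaning is not given.

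Agar and liquid in SD were next compared within each altered strain. GPH1 fell on agar in 9 of the 10 strains, wild-type included, and the exception was the msb2 knockout (0.11 ± 0.40). GLG1 fell in 7 strains, GSY2 and GLC3 in 5 each, and GSY1 in 3, while GSY1 rose in 2. GLG2 passed in none of the 10, its changes lying between -0.16 and 0.37. GDB1 and GAC1 fell in 2 strains each. PIG2 rose in 3 and fell in 2, and GIP2 rose in 2 and fell in 2. PIG2, GIP2, GSY1 and GSY2 therefore had calls in both directions, and GSY2 rose only in the msb2 knockout, with overlapping arrays. The fall of GIP2 in the flo11 knockout was between signals mostly below background. No upward call was found for GPH1, GLG1, GLC3, GDB1 or the remaining phosphatase-targeting gene, GAC1.

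**Figure D5:**
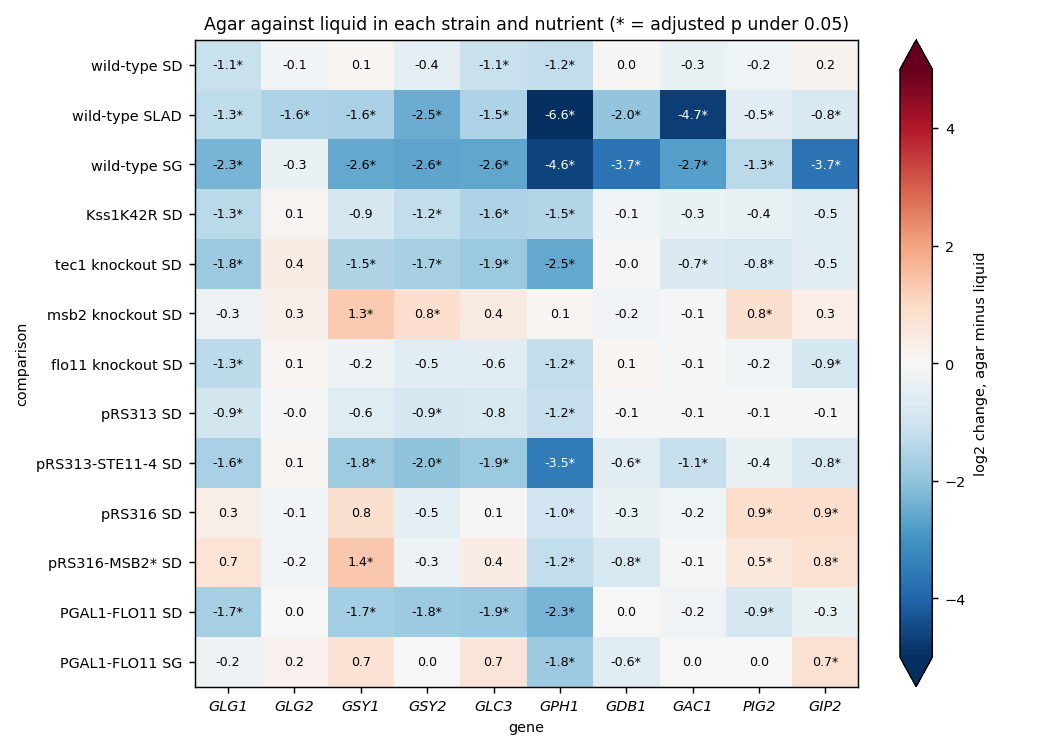
Log2 change between agar and liquid (colour and number) for each glycogen gene in each strain and nutrient, with an asterisk where the adjusted p was under 0.05. GPH1 is negative in every row except the msb2 knockout, and positive called values are found in the msb2 knockout, pRS316, pRS316-MSB2* and PGAL1-FLO11 SG rows.

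The kinase Kss1 and the transcription factor Tec1 act in the filamentation pathway. In Kss1K42R 4 genes fell on agar (GLC3 -1.56 ± 0.32, GPH1 -1.46 ± 0.40, GLG1 -1.34 ± 0.27 and GSY2 -1.23 ± 0.28), beside 23.3% of all genes. The difference of its agar effect from that of wild-type passed for none of the 10, where 6.7% of all genes passed and no glycogen gene had an unadjusted p under 0.05. In the tec1 knockout 7 genes fell, beside 23.3% of all genes. GPH1 read 6.22, 6.11 and 6.14 on agar, with 1 array above background, and 8.51, 8.79 and 8.80 in liquid in that strain (-2.55 ± 0.40, limma adjusted p = 5.45e-07). GLC3 (-1.86 ± 0.32), GLG1 (-1.82 ± 0.27), GSY2 (-1.67 ± 0.28), GSY1 (-1.50 ± 0.40) and PIG2 (-0.77 ± 0.18) also fell, and GAC1 was at least 1.36-fold lower. GSY2 alone had an agar effect that passed against wild-type (-1.24 ± 0.40, limma adjusted p = 0.036), beside 8.07% of all genes that were lower. This call was lost without any one of 10 of the 12 arrays in the contrast. An unadjusted p under 0.05 was found for 5 glycogen genes, and more than GSY2 passed with only the compared groups in the fit.

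Each of these strains was also set against wild-type on the same substrate. No glycogen gene passed on agar in Kss1K42R (5.82% of all genes in either direction, 0 glycogen genes at an unadjusted p under 0.05) or in the tec1 knockout (6.68% of all genes, 2 at an unadjusted p under 0.05). With only the compared groups in the fit, glycogen genes did pass on agar in both strains, fewer in Kss1K42R. In liquid, GIP2 alone rose in Kss1K42R (limma adjusted p = 0.0258, beside 15% of all genes), and no fold is given because every array of both groups was below background. In the tec1 knockout in liquid GSY1 (1.25 ± 0.40), GLG1 (0.79 ± 0.27) and GSY2 (0.74 ± 0.28) rose, beside 16.1% of all genes, and GLG2 fell (-0.47 ± 0.17), beside 8.85%. GSY1 read 9.0, 8.99 and 9.15 there, above the wild-type liquid arrays of 7.69 to 7.86. These 4 calls became 2 without any of wild-type liquid arrays A or C or knockout arrays A or C, and 1 without knockout array B.

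In the knockout of MSB2, the cell-surface mucin proposed to act at the head of the pathway, 3 genes rose on agar against liquid (GSY1, GSY2 and PIG2) and none fell, beside 19.8% of all genes that rose. GSY1 read 7.32, 10.54 and 9.63 on agar and 7.73, 7.85 and 7.99 in liquid. Array A on agar lay below all liquid arrays and arrays B and C above them, so the change of 1.30 ± 0.40 (limma adjusted p = 0.00696) averages arrays that went opposite ways. GSY2 behaved alike, at 9.56, 11.09 and 11.97 on agar and 9.87, 10.01 and 10.25 in liquid (0.83 ± 0.28), and GPH1 read 6.61, 8.17 and 9.04 on agar. PIG2 was the exception, with agar arrays (8.69, 8.62 and 8.46) above all liquid arrays (7.85, 7.83 and 7.73) and a change of 0.79 ± 0.18. The count of 3 became 1 without agar array C and 4 without agar array A. The agar effect was higher than in wild-type for GLC3 (1.54 ± 0.45), GSY2 (1.26 ± 0.40) and PIG2 (1.01 ± 0.25), beside 8.11% of all genes, and 6 genes passed without array A but 1 without array C.

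Against wild-type on agar, 6 genes rose in the msb2 knockout, beside 17.7% of all genes, led by GSY1 (1.26 ± 0.40) and GLG1 (1.08 ± 0.27), then GLC3 (0.84 ± 0.32), GSY2 (0.83 ± 0.28) and PIG2 (0.45 ± 0.18). GIP2 was the sixth (limma adjusted p = 0.0214), with no fold because it was below background on every wild-type array. This count was 0 without knockout agar array B, 1 without array C and 3 without wild-type agar array A or B, and 2 with only these 6 arrays in the fit. In liquid PIG2 alone fell (-0.56 ± 0.18), beside 7.71% of all genes. The call was lost without knockout liquid array C, and 2 genes passed without knockout array A or wild-type array A. With pRS316 in place of wild-type as the control, the agar difference of GSY1 turned to -1.98. URA3, the marker of pRS316, read 4.40 ± 0.14 in the msb2 knockout on agar, 4.70 ± 0.17 in wild-type and 13.44 ± 0.17 with pRS316.

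Without the adhesin gene FLO11, 3 genes fell on agar against liquid, beside 19.4% of all genes: GLG1 (-1.33 ± 0.27), GPH1 (-1.22 ± 0.40) and GIP2. GLG1 read 6.89, 7.18 and 7.43 on agar and 8.42, 8.49 and 8.57 in liquid, with no overlap. GIP2 was below background on all agar arrays and on 2 of 3 liquid arrays, so that no fold can be given (limma adjusted p = 0.00598). Without flo11 agar array A, 1 gene passed. The difference of the agar effect from wild-type passed for GIP2 alone (limma adjusted p = 0.0371), beside 11.9% of all genes that were lower. It compares signals that were not above background on 11 of the 12 arrays, so no size is given, and the call was lost without any one of 7 of the 12 arrays. On agar no glycogen gene passed against wild-type (1.05% of all genes in either direction, 0 glycogen genes at an unadjusted p under 0.05). In liquid GIP2 alone passed against wild-type, beside 33.1% of all genes that rose, between signals above background on 1 of the 6 arrays. It did not pass without wild-type liquid array C, which read 4.22 against 5.37 and 5.49 on A and B.

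STE11-4 is an allele of the pathway kinase gene STE11 and was compared with the plasmid pRS313 alone. In both strains the titles of the liquid arrays, but not of the agar arrays, carry the unexplained letter b. Within each strain, the substrate cannot be told apart from whatever that letter marks. With pRS313, GLG1 (-0.93 ± 0.27), GSY2 (-0.85 ± 0.28) and GPH1 (-1.17 ± 0.40) fell on agar, beside 14.1% of all genes. GPH1 read 8.11, 6.46 and 6.29 on pRS313 agar and 8.03, 7.89 and 8.45 in liquid, so that agar array A lay among the liquid arrays. Without agar array B or C, or liquid array A or C, 1 gene passed. With STE11-4, 8 genes fell on agar, beside 16.4% of all genes, and GLG2 and PIG2 did not pass. GPH1 read 6.99, 7.14 and 6.92 on STE11-4 agar and 9.45, 10.30 and 11.74 in liquid (-3.48 ± 0.40, limma adjusted p = 1.86e-10). GSY2 (-2.00 ± 0.28), GLC3 (-1.87 ± 0.32), GSY1 (-1.79 ± 0.40), GLG1 (-1.62 ± 0.27), GAC1 (-1.14 ± 0.26, with overlapping arrays) and GDB1 (-0.58 ± 0.15) fell as well, and GIP2 was at least 1.33-fold lower. The 3 liquid arrays were far apart, array C being highest for all of the 10 genes except PIG2, and without it 4 genes passed.

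STE11-4 was then set against pRS313 on each substrate. On agar no glycogen gene passed (3.67% of all genes in either direction, 0 glycogen genes at an unadjusted p under 0.05). In liquid 8 genes rose with STE11-4, beside 8.28% of all genes. GSY1 read 8.60, 9.69 and 11.59 with STE11-4 and 8.58, 8.51 and 8.55 with pRS313 (1.41 ± 0.40, limma adjusted p = 0.00827). GPH1 rose by 2.37 ± 0.40, with all STE11-4 arrays above the pRS313 arrays. GSY2 (1.51 ± 0.28), GLC3 (1.29 ± 0.32), GAC1 (1.06 ± 0.26), GLG1 (0.75 ± 0.27) and GDB1 (0.52 ± 0.15) also rose, and GIP2 was at least 1.44-fold higher. Without liquid array C of STE11-4 2 genes passed, and with only these 6 arrays in the fit none did. The difference of the agar effect passed for GPH1 alone (-2.31 ± 0.57, limma adjusted p = 0.00676), beside 2.35% of all genes that were lower, but not without STE11-4 liquid array C or pRS313 agar array A, while 5 genes passed without STE11-4 liquid array A.

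Cells with the plasmid pRS316 were compared with wild-type on both substrates. On agar 8 genes rose, beside 17.5% of all genes, and the arrays of pRS316 and wild-type did not overlap for any of the 10, called or not, as was so for 57.6% of all genes. GSY1 read 11.33, 10.85 and 11.23 with pRS316 and 7.98, 7.86 and 7.85 in wild-type, a 9.45-fold difference (3.24 ± 0.40, limma adjusted p = 1.86e-09). The changes were 2.57 ± 0.40 for GPH1, 2.22 ± 0.27 for GLG1, 1.82 ± 0.28 for GSY2, 1.71 ± 0.32 for GLC3, 0.72 ± 0.26 for GAC1 and 0.46 ± 0.15 for GDB1, and GIP2 was at least 2.02-fold higher. GLG2 (0.22 ± 0.17) and PIG2 (0.37 ± 0.18) did not pass. In liquid 6 genes rose, beside 28.6% of all genes, with GSY1 at 2.53 ± 0.40, GPH1 at 2.32 ± 0.40 and GSY2 at 1.84 ± 0.28, and PIG2 fell (-0.74 ± 0.18), beside 11.5%. The labels name only the plasmid, so the plasmid cannot be told apart from its host strain or its medium.

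Within pRS316, calls went in both directions. The targeting genes PIG2 (0.89 ± 0.18) and GIP2 (0.87 ± 0.26) rose on agar, beside 18.7% of all genes that rose, and GPH1 fell (-0.97 ± 0.40, limma adjusted p = 0.0463), beside 23.4% that fell. GSY1 changed by 0.82 ± 0.40 and did not pass, although its agar arrays (10.85 to 11.33) lay above its liquid arrays (10.21 to 10.41). Against wild-type, the agar effect was higher for GLG1 (1.37 ± 0.38) and PIG2 (1.11 ± 0.25), beside 5.8% of all genes. More glycogen genes passed with only the compared groups in the fit, here and for agar against liquid within pRS316.

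With MSB2*, an allele of MSB2 on pRS316, calls also went in both directions. GSY1 (1.35 ± 0.40), GIP2 (0.77 ± 0.26, with overlapping arrays) and PIG2 (0.53 ± 0.18) rose on agar, beside 7.67% of all genes, and GPH1 (-1.22 ± 0.40) and GDB1 (-0.79 ± 0.15), the genes of breakdown, fell, beside 10.1%. GSY1 read 12.20, 11.06 and 12.28 on MSB2* agar and 10.61, 10.38 and 10.50 in liquid. GPH1 read 10.88, 9.47 and 10.74 on agar and 11.62, 11.57 and 11.58 in liquid, lower on all agar arrays where GSY1 was higher on all. Agar array B was the lowest of its group for all 10 genes. The count of 5 became 2 without agar array A or C, or liquid array B or C. The difference of the agar effect between MSB2* and pRS316 passed for no glycogen gene (1.73% of all genes in either direction, 1 glycogen gene at an unadjusted p under 0.05).

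Against pRS316, GAC1 alone rose with MSB2* on agar (0.87 ± 0.26, limma adjusted p = 0.0228), beside 6.68% of all genes. Without MSB2* agar array B 5 genes passed, and without A or C, or pRS316 agar array C, none did. In liquid GPH1 (1.07 ± 0.40), GIP2 (0.80 ± 0.26), GAC1 (0.72 ± 0.26) and GDB1 (0.65 ± 0.15) rose, beside 10.1% of all genes. GDB1 read 11.64, 11.59 and 11.63 with MSB2* and 10.96, 10.99 and 10.95 with pRS316, with very little spread in either group. The 4 calls became 1 or 2 without any MSB2* liquid array or pRS316 liquid array B or C.

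The arrays labelled PGAL1-FLO11 were set against wild-type in SG, where the GAL1 promoter is active (GAL1 15.31 ± 0.05 on agar). FLO11 was near the top of the scale in SG in both strains. It read 15.21 ± 0.03 on agar and 15.19 ± 0.03 in liquid in PGAL1-FLO11, against 14.76 ± 0.12 and 14.73 ± 0.32 in wild-type. A part of FLO11 in the differences in SG was not tested. In SD, 6 genes fell on agar against liquid, beside 21.7% of all genes, with GPH1 at -2.34 ± 0.40, GLC3 at -1.90 ± 0.32, GSY2 at -1.80 ± 0.28, GSY1 at -1.71 ± 0.40, GLG1 at -1.68 ± 0.27 and PIG2 at -0.88 ± 0.18. In SG, GPH1 (-1.83 ± 0.40) and GDB1 (-0.57 ± 0.15) fell, beside 10% of all genes, and GIP2 rose (0.74 ± 0.26), beside 11.7%. GPH1 read 10.76, 10.62 and 10.30 on SG agar and 12.21, 11.90 and 13.06 in SG liquid. Without SG agar array C 1 gene passed.

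On SG agar no glycogen gene passed between PGAL1-FLO11 and wild-type (1.84% of all genes in either direction, 0 glycogen genes at an unadjusted p under 0.05). In SG liquid all 10 were lower in PGAL1-FLO11, beside 32% of all genes. The arrays of none of the 10 overlapped, as was so for 61.7% of all genes. GIP2 read 6.79, 6.99 and 7.12 in PGAL1-FLO11 and 11.49, 11.13 and 11.25 in wild-type, a 20.0-fold difference (-4.32 ± 0.26, limma adjusted p = 3.4e-23). GSY1 read 10.34, 10.98 and 11.47 against 14.37, 14.38 and 14.13, a 10.3-fold difference (-3.36 ± 0.40). GLC3 (-3.13 ± 0.32), GDB1 (-2.86 ± 0.15), GAC1 (-2.81 ± 0.26), GPH1 (-2.58 ± 0.40), GLG1 (-2.53 ± 0.27) and GSY2 (-2.51 ± 0.28) were lower by a similar amount, and PIG2 (-1.43 ± 0.18) and GLG2 (-0.57 ± 0.17) by less. The agar effect in SG was accordingly higher in PGAL1-FLO11 than in wild-type for 9 genes, beside 26.2% of all genes. Higher here means a smaller fall on agar than in wild-type, no fall, or a rise in place of the fall, as for GIP2. The differences ran from 1.36 ± 0.25 for PIG2 to 4.43 ± 0.36 for GIP2, and GLG2 did not pass (0.51 ± 0.24). This contrast shares the wild-type SG liquid arrays with the comparisons above, so the values are not independent of them.

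Genes that feed or control the pathway were followed as lists. Of 6 genes that lead from glucose to UDP-glucose, 2 fell in wild-type on SD agar and 4 did not pass (median -0.52), where 21.1% of all genes fell, with the glucokinase GLK1 at -1.19 ± 0.21 and the UDP-glucose pyrophosphorylase UGP1 at -0.71 ± 0.16. In SLAD 5 of the 6 fell on agar and PGM1 rose (median -1.52), where 33.6% of all genes fell and 39.3% rose. The hexokinase HXK1 changed by -4.69 ± 0.49, the phosphoglucomutase PGM2 by -3.31 ± 0.35 and GLK1 by -2.16 ± 0.21, and the minor phosphoglucomutase PGM1 by 0.93 ± 0.09. In SG 3 of the 6 fell on agar (PGM2 -2.29 ± 0.35 among them), 2 rose (PGM1 0.74 ± 0.09 and HXK2 0.71 ± 0.05) and 1 did not pass (median -0.64), where 29.7% of all genes fell and 34.9% rose. In SG against SD liquid, HXK1 (5.13 ± 0.49) and PGM2 (5.12 ± 0.35) were among the 4 of the 6 that rose, and 2 fell, where 43.2% of all genes rose and 34.9% fell.

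Another list held 13 kinases, cyclins and phosphatase components that act on glycogen enzymes. On SD agar 7 rose, 2 fell and 4 did not pass, where 30.8% of all genes rose and 21.1% fell, with the Pho85 cyclin PCL10 at 0.50 ± 0.10, PHO85 itself at -0.50 ± 0.08 and the phosphatase GLC7 at 0.48 ± 0.16. In SLAD 7 fell on agar, 3 rose and 3 did not pass (33.6% of all genes fell and 39.3% rose), PCL7 changing by -1.24 ± 0.09 and PCL8 by -1.18 ± 0.13. In SG 11 fell and 2 did not pass (29.7% of all genes fell), PSK1, a kinase of the glycogen synthase, changing by -1.67 ± 0.12. The medians of this list were 0.17, -0.24 and -0.51 in SD, SLAD and SG, against -0.27, -1.59 and -2.63 for the 10 glycogen genes and 0.09, 0.07 and 0.04 for all genes.

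Of 8 regulators in the Ras, cAMP and stress pathways, 3 rose on SD agar and 5 did not pass (median 0.13, beside 0.09 for all genes), where 30.8% of all genes rose. In SLAD 6 of the 8 fell on agar, 1 rose and 1 did not pass (median -0.80), where 33.6% of all genes fell and 39.3% rose. The stress transcription factor MSN4 changed by -2.22 ± 0.14 there, the cAMP-dependent kinase's regulatory subunit BCY1 by -1.45 ± 0.10 and the kinase RIM15 by -1.35 ± 0.09, whereas the catalytic subunit TPK3 rose by 1.70 ± 0.17. In SG 6 fell and 2 rose (median -1.21), where 29.7% of all genes fell and 34.9% rose, with TPK2 at -2.20 ± 0.16, YAK1 at -1.63 ± 0.17 and MSN4 at -1.62 ± 0.14. SGA1, the sporulation-specific glucoamylase and another route of glycogen breakdown, did not pass on SD agar (0.16 ± 0.15). SGA1 fell on agar in SLAD (-3.37 ± 0.15) and in SG (-1.43 ± 0.15).

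The glycogen genes also differed in how closely they followed each other over the 29 group means. These correlations are descriptions, since groups share strains, media and normalization, and wild-type SG liquid is far from the rest. Pearson's r was 0.97 between GSY2 and GLC3 and 0.96 between GSY1 and GSY2, and both stayed at 0.94 or above without wild-type SG liquid (0.95 and 0.94 over 28 groups). GPH1 followed GAC1 (0.92) and GSY2 (0.94) more closely than GSY1 (0.85). GLG2 followed its paralog GLG1 weakly, with r of 0.39 over 29 groups and 0.21 without wild-type SG liquid. The highest r of GLG2 was with GAC1 (0.79), and its lowest was with PIG2 (0.27, and 0.03 without wild-type SG liquid).

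Among all other named genes, the most similar over the 29 group means was EMI2 for both GSY1 (r = 0.98) and GLC3 (0.97). For GSY2 it was IGD1 (0.98), which encodes an inhibitor of the debranching enzyme, and for GPH1 it was MSC1 (0.98). The others were MHO1 for GLG1 (0.96), FMP16 for GAC1 (0.97), DCS2 for GDB1 (0.96), UBX5 for GIP2 (0.95) and NNK1 for GLG2 (0.90). PIG2 had the lowest such value, 0.84 with the kinase gene YAK1. These values have 29 points each and rest in part on the extreme wild-type SG liquid group.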

How the data were processed

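RNA of 90 samples was hybridised to single-channel Affymetrix arrays. The authors deposited log2 signals per probe set after RMA, per the submitters' processing notes. Which version and options of RMA were used is not given in the sources used here. Of 10928 probe sets, 7244 name 1 gene and 5498 of these match the S. cerevisiae table; for a gene with several, the brightest was used, which left 5449 genes. Array medians were 6.76 to 7.23, and the number of arrays limits the precision. All columns were used. Groups came from the labels.

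A single model, with 1 mean for each group, was fitted with limma 3.58.1 in R 4.3.3 (61 residual degrees of freedom), with moderated two-sided tests, Benjamini-Hochberg adjustment over all genes and a threshold of 0.05. Scripts were tested on simulated data. An exact permutation test of 3 against 3 arrays cannot go below p = 0.1, so none was used. Figures were drawn with matplotlib 3.10.9.

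The genes and lists were chosen with earlier results of these data known, so no p was adjusted over them alone. All 10 genes are named; of each related list, up to 4 genes with the largest change in a comparison; and for each gene, the named gene with the highest correlation. Promoter and protein sequences were not analysed here. Same-letter arrays across substrates had correlated deviations (every r above 0.1) in 1 of 15 comparisons, with r from -0.35 to 0.41. The arrays were therefore not paired by letter in the fit. The labels do not say whether same-letter arrays belong together, and these correlations cannot settle it. Alternatives were quantile normalization, median centring, a filter on dim genes, averaging instead of choosing among probe sets, a 2-fold rule, fits with only the compared groups, a replicate block, leaving out each array, subsets of the 0 h arrays and pRS316 as control.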

Additional observations from a re-analysis of the deposited data

Results flagged for a closer look

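The results below are differences of the agar effect (agar against liquid) between nutrients or strains, in log2, whose limma test of the difference itself passed at an adjusted p under 0.05. The agar effect is signed, so a lower one means a stronger fall or a weaker rise on agar, and a higher one the reverse. No array stood apart from its group of 6 at 0 h by Dixon's test for any glycogen gene, and groups of 3 were not tested that way.

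In wild-type, the agar effect was lower in SLAD than in SD for GPH1 (-5.35), GAC1 (-4.38), GSY2 (-2.04), GDB1 (-2.04), GSY1 (-1.74), GLG2 (-1.40) and GIP2 (-0.94). It was lower in SG than in SD for GIP2 (-3.87), GDB1 (-3.74), GPH1 (-3.41), GSY1 (-2.66), GAC1 (-2.42), GSY2 (-2.21), GLC3 (-1.51), GLG1 (-1.24) and PIG2 (-1.13). GIP2 lay below background on every SD array of both contrasts, and on every SLAD agar array, so its values here are not sizes of a measured change.

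Between strains in SD, the agar effect differed from wild-type for GSY2 in the tec1 knockout (-1.24), for GLC3 (1.54), GSY2 (1.26) and PIG2 (1.01) in the msb2 knockout, for GIP2 in the flo11 knockout (-1.06, from signals not above background on 11 of 12 arrays), and for GLG1 (1.37) and PIG2 (1.11) with pRS316. It differed between STE11-4 and pRS313 for GPH1 (-2.31).

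In SG, the agar effect in PGAL1-FLO11 was higher than in wild-type for GIP2 (4.43), GSY1 (3.28), GLC3 (3.27), GDB1 (3.12), GPH1 (2.79), GAC1 (2.75), GSY2 (2.66), GLG1 (2.10) and PIG2 (1.36). For each of these 9 genes the wild-type SG liquid group held the highest mean of all 29 groups.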

How the results depend on the processing

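Counts below are of the 10 glycogen genes that passed, as reported and then under the alternative. Shares of all genes that passed are not given for the alternatives, here or above. These counts therefore show only how calls moved, not whether the glycogen genes differ from other genes. No log2 change of a glycogen gene changed sign with its call under quantile normalization, median centring, the replicate block or any left-out array. The mean of probe sets could not alter these log2 changes, because each of the 10 genes has 1 probe set. Of 500 changes, 473 kept their side of the threshold under quantile normalization, 480 under centring, 493 under the block and 416 with only the compared groups in the fit. The filter on dim genes kept 3 of the 10 genes, and their 150 results kept their calls. Over 50 comparisons of all genes, the share of calls that were upward moved by over 10 points in 15 under quantile normalization and in 37 under centring, with median shifts of up to 0.12 and 0.28 log2. The causes of the changes listed here were not tested.

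Quantile normalization changed pRS313 agar against liquid from 3 to 0, MSB2* against pRS316 on agar from 1 to 0, the tec1 knockout against wild-type in liquid from 4 to 1 and its difference of the agar effect from 1 to 0. Centring changed the tec1 knockout in liquid from 4 to 2, MSB2* against pRS316 in liquid from 4 to 2 and the flo11 difference of the agar effect from 1 to 0. With the replicate block, 6 h against 0 h on SD agar went from 0 to 1 and Kss1K42R in liquid from 1 to 2, and no other count moved by over 1.5 times. With 0 h arrays A to C alone or D to F alone, that comparison on agar went from 0 to 1.

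Requiring a 2-fold change as well took gelatin against liquid from 4 to 1. It took agar against liquid from 3 to 1 in the msb2 knockout, pRS313 and PGAL1-FLO11 in SG, from 3 to 0 in pRS316 and from 5 to 2 in MSB2*. On agar it took the msb2 knockout against wild-type from 6 to 2 and MSB2* against pRS316 from 1 to 0. In liquid it took Kss1K42R, msb2 and flo11 from 1 to 0 each, tec1 from 4 to 1, STE11-4 against pRS313 from 8 to 5, MSB2* against pRS316 from 4 to 1 and pRS316 against wild-type from 7 to 4.

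With only the compared groups in the fit, gelatin went from 4 to 1. Agar against liquid went from 3 to 1 in msb2, 3 to 5 in flo11, 8 to 4 in STE11-4 and 3 to 6 in pRS316. SLAD against SD on agar went from 0 to 5 and 6 h against 0 h on agar from 0 to 1. On agar, Kss1K42R went from 0 to 1, tec1 from 0 to 4, msb2 from 6 to 2, flo11 from 0 to 1 and MSB2* from 1 to 0. In liquid, Kss1K42R went from 1 to 2, msb2 from 1 to 3, flo11 from 1 to 2, STE11-4 from 8 to 0 and MSB2* from 4 to 7. Differences of the agar effect went from 0 to 1 in Kss1K42R, 1 to 6 in tec1, 3 to 1 in msb2, 1 to 0 in flo11 and in STE11-4, and 2 to 5 in pRS316.

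With pRS316 as the control in place of wild-type, flo11 on agar went from 0 to 9, msb2 in liquid from 1 to 6, flo11 in liquid from 1 to 7, and the difference of the agar effect from 3 to 1 in msb2 and 1 to 3 in flo11. The share of all genes that passed with this control is not given. The sign turned for msb2 on agar in GSY1 (1.26 to -1.98), GSY2 (0.83 to -0.99), GLG1 (1.08 to -1.14), GLC3 (0.84 to -0.88), GPH1 (0.96 to -1.61) and GIP2 (0.75 to -1.15), and for flo11 on agar in GDB1 (0.08 to -0.39). In liquid it turned for msb2 in GSY1 (0.06 to -2.46), GDB1 (0.20 to -0.63) and PIG2 (-0.56 to 0.18), and for flo11 in GSY1 (0.23 to -2.30), GDB1 (0.02 to -0.81), PIG2 (-0.06 to 0.67) and GIP2 (0.96 to -0.24). The agar-effect difference of PIG2 turned from 1.01 to -0.10 in msb2 and from 0.01 to -1.10 in flo11.

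Leaving out 1 array at a time moved 62 of 366 counts by over 1.5 times. The ranges were 1 to 4 for gelatin. For agar against liquid they were 1 to 4 in msb2, 1 to 3 in flo11, pRS313 and PGAL1-FLO11 in SG, 4 to 8 in STE11-4 and 2 to 5 in MSB2*. Against the control on agar they were 0 to 6 for msb2 and 0 to 5 for MSB2*. In liquid they were 0 to 1 for Kss1K42R and flo11, 1 to 4 for tec1, 0 to 2 for msb2, 2 to 9 for STE11-4 and 1 to 3 for MSB2*. For the difference of the agar effect they were 0 to 1 in tec1 and flo11, 1 to 6 in msb2 and 0 to 5 in STE11-4.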
